A study of Mus musculus with 67 samples.

Results

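The report covers 10 genes for histone deacetylases and other transcriptional co-repressors, most of them proposed to act with GLI3: Hdac1, Hdac2, Hdac3, Sin3a, Sap18, Ncor1, Smarcc1, Ski, Skil and Atn1. They were taken by name from RNA-seq gene tables of mouse forelimb buds, 10 genes of the 46983 gene IDs in each table, and all 10 passed the filter on low values in every comparison. The 14 libraries fall into 4 groups: wild type (WT) at E9.25 with n = 3, Gli3-/- at E9.25 with n = 4, WT at E10.5 with n = 4 and Gli3-/- at E10.5 with n = 3. The E9.25 libraries were made from whole forelimb buds at 21 to 23 somites, before Hedgehog (HH) signalling starts in the limb, and the E10.5 libraries from the anterior part of the bud at 32 to 35 somites, after it has started. Because of this, stage and dissected region cannot be told apart in any E9.25 to E10.5 comparison. Each library holds RNA of several pooled pairs of buds. The labels give about 4 pairs for E9.25 and 2 pairs for E10.5, but the written methods give about 4 pairs at both stages in one place and 3 to 4 embryos in another, so the input is uncertain. The mutant embryos carried no functional Gli3 throughout the body (allele Xt-J, kept on Swiss Webster mice), and no other mutant allele is given for these groups.

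GLI3 is a zinc finger transcription factor that, without HH signal, is processed to a truncated repressor. Histone deacetylases (HDACs) remove acetyl groups from histones and are brought to DNA in large complexes. HDAC1 and HDAC2 sit in the SIN3, NuRD and CoREST complexes, while HDAC3 works with the scaffold NCOR1. SIN3A is the scaffold of the SIN3 complex and SAP18 is a small protein found with it. SKI and its paralogue SKIL (SnoN) are co-repressors best known for binding SMAD proteins. SMARCC1 is a core subunit of the BAF chromatin remodelling complex, and ATN1 (atrophin-1) is a nuclear co-repressor related to RERE. In the anterior limb bud, repression by GLI3 is known for limiting digit number.

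The libraries held an estimated 38100000 to 56800000 reads each, so that 1 TPM (transcripts scaled for length and for library size) stood for 20.7 to 29.3 reads per kilobase. Gli3 itself ranged from 73.4 to 89.7 TPM in E10.5 WT and from 38.7 to 40.9 TPM in E10.5 Gli3-/-, with no overlap. At E9.25 it ranged from 15.8 to 44.6 TPM in WT and from 14.3 to 20.8 TPM in Gli3-/-, ranges that overlap because the library labelled E9.25 WT replicate 2 held 15.8 TPM while the other WT libraries held 44.2 and 44.6 TPM. The Gli3 level thus goes against the label of that library. Other genes went with its label. For 12 of 41 cell type markers, Foxf1 and Gata4 among them, all E9.25 WT libraries, that one included, lay apart from all E9.25 Gli3-/- libraries. The share of all genes tested was 13.3%, and the ranges of the other markers overlapped. Whether the low Gli3 level comes from the genotype of that library was not tested. All 7 limb mesenchyme markers were at 1 TPM or more in every library. Summed macrophage markers ranged from 1.41 to 5.04 TPM at E9.25 and from 7.89 to 13.6 TPM at E10.5, with Aif1 at 0 in all E9.25 libraries, and summed muscle progenitor markers from 5.78 to 11.3 and from 27.7 to 51.8 TPM. Gene by gene, the stages did not overlap for 21 of 41 markers of 7 cell types in WT (16 higher and 5 lower at E10.5, against 53.5% of all genes) and for 26 in Gli3-/- (14 higher and 12 lower, against 35.7%). In WT the muscle and macrophage markers, Prrx1, Tbx5 and Twist2 of limb mesenchyme, Pecam1 and Cdh5 of endothelium, and Osr1 and Tbx18 of flank and lateral plate mesoderm were higher, and Fgf10 and the flank genes Foxf1, Gata4, Gata6 and Wt1 lower. In Gli3-/- the muscle markers, the macrophage markers but for Cd68, Prrx1, Twist2, Pecam1, Tbx18 and the ectoderm genes Epcam and Fgf8 were higher. Lower there were Twist1, Msx1, the ectoderm genes Krt8, Krt18 and Wnt7a, the endothelial genes Kdr, Tek and Cldn5 and the same 4 flank genes. Sums of a list thus mix both directions, and over all libraries they ranged from 184 to 379.8 TPM for surface ectoderm, from 63.8 to 169 TPM for endothelium and from 7713 to 38178 TPM for red cells. The part of these cells in the stage results was not tested.

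The library labelled E9.25 WT replicate 2 stood apart in a way that bears on these genes. Against the mean of the other E9.25 WT libraries, the 1555 genes spanning 100 kb or more had a median log2 difference of -0.55 in it, and all 14760 genes tested a median of -0.19. The members had a median of -0.53. It was the lowest of the 3 E9.25 WT libraries for 8 of the 10 members and the lowest of all 14 libraries for 6. The log2 changes of the members that rest on it are given with and without it, while list counts, changes of genes that are no members and ratios are given with it included.

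The gene tables place Hdac1 at chr4:129516104-129542713 on the minus strand and Hdac2 at chr10:36974544-37001889 on the plus strand. Sin3a lies at chr9:57072040-57128366 (plus), Sap18 at chr14:57798180-57804980 (plus) and Ncor1 at chr11:62316426-62458541 (minus). Smarcc1 lies at chr9:110117708-110240178 (plus), Ski at chr4:155154075-155222592 (minus), Skil at chr3:31095058-31122577 (plus) and Atn1 at chr6:124742544-124756524 (minus). The build is not named for these tables, but 99.8% of the 33122 IDs with a RefSeq namesake overlapped it on GRCm38.p6. The genes differ much in span, from 6.8 kb for Sap18 to 142.1 kb for Ncor1. All 10 are protein-coding.

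The promoters of 4 members are shown because their RefSeq start (GRCm38.p6) lay within 100 bases of the start in the gene tables. Between the stages in WT, Sin3a was called higher, while Sap18, Ski and Hdac2 did not pass the test. RefSeq held 8 promoter entries for 6 of the 10 members. Each sequence runs from 250 bases before to 50 after the start, on the gene's own strand. Capitals mark matches on either strand to a GC box, which was searched as GGGCGG. They also mark the CCAAT box, searched under its own letters, and a TATA box, for which the letters searched were TATAAA. Ski is at chr4:155222486-155222785, Sin3a at chr9:57071790-57072089, Hdac2 at chr10:36974294-36974593 and Sap18 at chr14:57797939-57798238.
Ski: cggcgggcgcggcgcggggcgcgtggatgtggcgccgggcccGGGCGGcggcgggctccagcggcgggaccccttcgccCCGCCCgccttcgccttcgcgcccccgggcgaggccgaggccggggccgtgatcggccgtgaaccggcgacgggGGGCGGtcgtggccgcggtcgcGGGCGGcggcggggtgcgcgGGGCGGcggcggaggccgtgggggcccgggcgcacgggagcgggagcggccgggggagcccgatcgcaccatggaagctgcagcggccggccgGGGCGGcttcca
Sin3a: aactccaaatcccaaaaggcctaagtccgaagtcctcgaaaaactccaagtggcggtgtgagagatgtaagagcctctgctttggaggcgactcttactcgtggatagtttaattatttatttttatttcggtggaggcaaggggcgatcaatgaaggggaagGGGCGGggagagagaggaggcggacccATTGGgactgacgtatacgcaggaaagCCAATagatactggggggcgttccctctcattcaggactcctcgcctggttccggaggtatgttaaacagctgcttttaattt
Hdac2: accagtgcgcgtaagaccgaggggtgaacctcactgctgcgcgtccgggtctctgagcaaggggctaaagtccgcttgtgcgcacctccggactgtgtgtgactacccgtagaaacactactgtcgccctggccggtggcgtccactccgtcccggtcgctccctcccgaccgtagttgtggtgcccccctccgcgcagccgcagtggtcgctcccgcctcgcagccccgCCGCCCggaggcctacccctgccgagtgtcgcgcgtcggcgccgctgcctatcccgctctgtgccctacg
Sap18: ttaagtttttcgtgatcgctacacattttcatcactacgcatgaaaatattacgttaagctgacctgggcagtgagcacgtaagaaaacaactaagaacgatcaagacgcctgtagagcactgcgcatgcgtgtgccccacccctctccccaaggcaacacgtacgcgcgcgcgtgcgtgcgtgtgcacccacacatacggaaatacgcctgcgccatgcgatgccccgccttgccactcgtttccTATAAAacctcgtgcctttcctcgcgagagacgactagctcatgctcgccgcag

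The promoters are unlike each other. That of Ski had 85.3% G and C, 59 CpG dinucleotides and 6 GC boxes, while that of Sin3a had 50% G and C, 14 CpG, 1 GC box and both CCAAT boxes of the printed set. Hdac2 had 69.7% G and C, 36 CpG and 1 GC box. Sap18 had 54.3% G and C, 29 CpG and a TATA box. Over all 32851 mouse promoters in the table the median was 52.7% G and C and 7 CpG. A GC box was in 6 of the 8 member promoters and in 35.7% of all promoters, a CCAAT box in 2 of 8 and in 37.4%, and a TATA box in 1 of 8 and in 13.6%. The GLI motif GACCACCCA, searched on both strands, was in 0 of the 8 and in 0.253% of all promoters. A match or its lack in this window is a description of the letters only.

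All 10 genes were transcribed in every library, at levels that spanned more than an order of magnitude. Hdac2 was the highest in all 4 groups (mean TPM 287.9 to 349), followed by Smarcc1 (146 to 236), Hdac1 (129.7 to 154) and Hdac3 (78.3 to 108). Skil was the lowest in all 4 groups (14.2 to 29.1). In E9.25 WT the order went on with Sap18, Sin3a, Ncor1, Ski, Atn1 and Skil. There the ranges of Smarcc1 and Hdac1 overlapped, as did each neighbouring pair from Sin3a down to Skil. In E10.5 WT the order after Hdac3 was Sin3a, Ncor1, Sap18, Atn1, Ski and Skil, and the ranges of Sin3a and Ncor1, of Ncor1 and Sap18, of Atn1 and Ski, and of Ski and Skil overlapped. Atn1 thus had a lower mean than Ski at E9.25 in both genotypes and a higher mean at E10.5, but within each group the ranges of this pair overlapped.

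**Figure D1:**
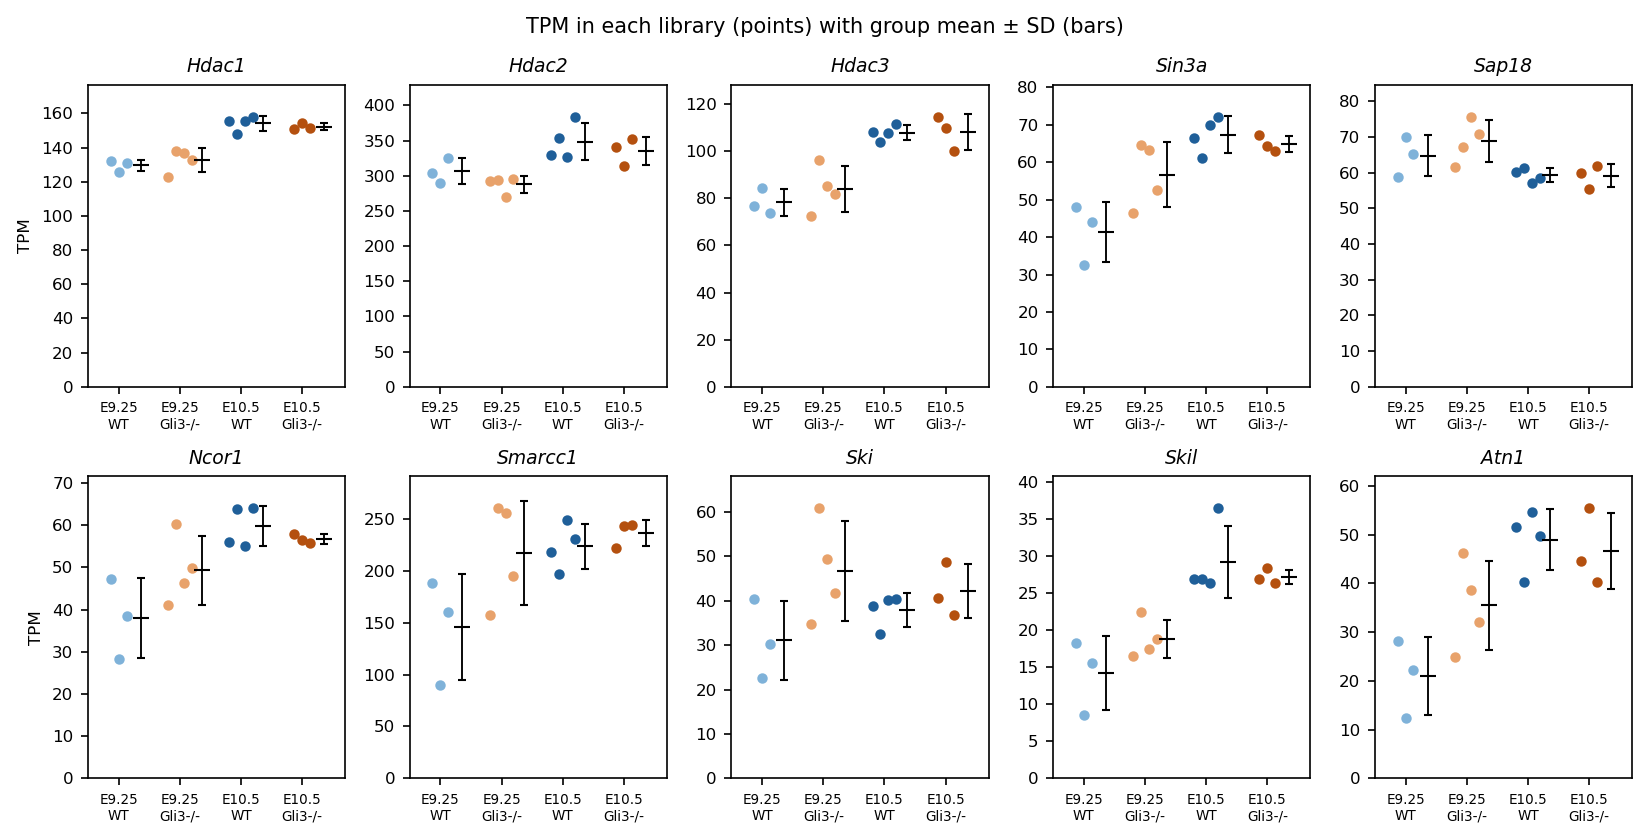
TPM of the 10 members in each of the 14 libraries, 1 panel per gene, with coloured points for libraries and black marks with bars for the group mean ± SD; the 4 groups are E9.25 and E10.5, WT and Gli3-/-. In Atn1, Skil and Sin3a the E10.5 WT points all lie above the E9.25 WT points, while the WT points of Ski overlap, at 22.6 to 40.4 TPM and 32.4 to 40.4 TPM.

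The first question was which of these genes differ between E9.25 and E10.5 in WT buds, that is, before and after HH signalling starts in the limb. Atn1, Skil, Sin3a, Smarcc1, Ncor1, Hdac3 and Hdac1 were higher at E10.5 (7 of 10, limma on log2(TPM + 1), Benjamini-Hochberg adjusted p under 0.05), none was lower, and Ski, Hdac2 and Sap18 did not pass. This count has to be read against the background, since 48.7% of the 15444 genes tested were called and 38.1% were called higher. The median log2 change over all genes was 0.34, and that of the members 0.56. Both depended on how the libraries were scaled. The members' median was 0.23 with size factors, 0.10 with the span trend removed and 0.44 with quantile normalization. Over all genes it was then 0.05, 0.0048 and 0.03. The groups did not overlap for 8 of the 10 members, against 53.5% of all genes. Changes are therefore given below also relative to the median of all genes. The study reported Ski, Smarcc1 and Atn1 as significantly lower before HH induction than at E10.5, so that their direction here is not independent evidence. In the fit used here Atn1 and Smarcc1 were called as deposited, but Ski was not (limma adjusted p = 0.179). In bulk RNA of a bud or a part of it, fewer cells of a type and less RNA per cell cannot be told apart.

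Among the HDAC genes, Hdac3 and Hdac1 were called higher on the TPM as deposited and Hdac2 was not. Hdac3, on the minus strand of chromosome 18, was at 76.8, 84.5 and 73.6 TPM in the E9.25 WT libraries and at 108, 104, 108 and 112 TPM in the E10.5 WT libraries, with a wide gap between the groups. Its log2 change was 0.46 ± 0.08 (SE; 95% interval 0.27 to 0.65, limma adjusted p = 0.0032), or 0.12 above the median gene, and it was not called once the libraries were scaled by size factors (0.13, adjusted p = 0.426) or the trend over gene span was removed (0.13, adjusted p = 0.354). Hdac1 was at 132, 126 and 131 TPM at E9.25 and at 155, 148, 155 and 158 TPM at E10.5. These groups did not overlap, yet the log2 change of 0.25 ± 0.07 (adjusted p = 0.023) was 0.09 below that of the median gene and turned to -0.09 with size factors and -0.10 without the span trend. The call was also lost on leaving out E10.5 WT replicate 1, 3 or 4 or the library labelled E9.25 WT replicate 2 (adjusted p up to 0.067). Hdac2, the most abundant HDAC gene of the set, was at 304, 289.7 and 326 TPM at E9.25 and at 329.5, 354, 327 and 384 TPM at E10.5, groups that just did not overlap. Its log2 change of 0.18 ± 0.09 (95% interval -0.01 to 0.38, adjusted p = 0.107) did not pass. It was called higher after quantile normalization (0.30, adjusted p = 0.0261) and was negative, and not called, with size factors (-0.15) and without the span trend (-0.17).

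Hdac3 was also higher at E10.5 in Gli3-/- buds, a comparison that shares no library with the WT comparison. Here 25% of 15434 genes were called, 15.8% higher and 9.17% lower, the median over all genes was 0.06 and that of the members 0.21. In all, 2 members were called higher, Hdac3 and Skil, and none lower. Hdac3 was at 72.6, 96.3, 85.4 and 82.0 TPM in E9.25 Gli3-/- and at 115, 110.0 and 100.0 TPM in E10.5 Gli3-/-. The E10.5 values were all higher, by 0.36 ± 0.12 on the log2 scale (limma adjusted p = 0.0432), a call that was lost in 5 of the 7 leave-one-out fits, with no filter (adjusted p = 0.0631) and with no trend in the variance (adjusted p = 0.0708). Between these groups 26 of the 41 marker genes named above also did not overlap, and their part in the member values was not tested. Hdac1 went from 123, 138, 137 and 133 TPM to 151, 155 and 151 TPM without overlap, and Hdac2 from 292, 294, 270.3 and 296 to 341, 314 and 352 TPM without overlap. Neither passed, at 0.20 (adjusted p = 0.144) and 0.22 (adjusted p = 0.116), though both were called after quantile normalization (0.26 and 0.32) and with sample quality weights (adjusted p = 0.0351 and 0.029). The groups did not overlap for 4 members in Gli3-/- (these 3 HDAC genes and Skil), against 35.7% of all genes.

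Of the SIN3 genes, Sin3a was called higher in WT and Sap18 was not called. Sin3a was at 47.9, 32.5 and 44 TPM in E9.25 WT and at 66.4, 61.0, 70.0 and 72.1 TPM in E10.5 WT, 1.63 times the E9.25 mean. The log2 change was 0.70 ± 0.14 (95% interval 0.39 to 1.02, limma adjusted p = 0.0045), or 0.37 above the median gene. It was called under each of the 10 alternative settings and with each library left out, falling to 0.24 (adjusted p = 0.0468) without the span trend. On leaving out the library labelled E9.25 WT replicate 2 it was 0.54 (adjusted p = 0.0034), but without both that library and the span trend 0.23 (adjusted p = 0.0582), and so not called. Among Gli3-/- libraries Sin3a went from 46.5, 64.5, 63.3 and 52.5 TPM to 67.2, 64.4 and 62.9 TPM, ranges that overlapped, and the change of 0.20 did not pass (adjusted p = 0.287) except with sample quality weights (0.27, adjusted p = 0.0351). Sap18 was the only member with a lower mean at E10.5 in WT: it was at 58.7, 70.1 and 65.3 TPM at E9.25 and at 60.3, 61.4, 57.1 and 58.6 TPM at E10.5. Those groups overlapped, and the change of -0.12 ± 0.09 (adjusted p = 0.296) did not pass. Relative to the median gene it was -0.46, and it was called lower with size factors (-0.45, adjusted p = 0.0285) and without the span trend (-0.37, adjusted p = 0.0279). Across the same stages in Gli3-/-, Sap18 went from 61.5, 67.3, 75.6 and 70.7 TPM to 59.9, 55.5 and 61.9 TPM, -0.21 (adjusted p = 0.176), and was called lower with sample quality weights alone (-0.22, adjusted p = 0.0386).

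Ncor1, the scaffold that activates HDAC3, was at 47.3, 28.4 and 38.5 TPM in E9.25 WT and at 56.1, 63.9, 55.2 and 64.0 TPM in E10.5 WT. The groups did not overlap, and the log2 change was 0.66 ± 0.16 (95% interval 0.30 to 1.03, limma adjusted p = 0.0108), 0.33 above the median gene. It was 0.34 (adjusted p = 0.0585) with size factors and 0.09 (adjusted p = 0.508) once the span trend was removed, so that for this 142.1 kb gene the call depended on the scaling. On leaving out the library labelled E9.25 WT replicate 2 it was 0.47 (adjusted p = 0.0119), and without both 0.08 (adjusted p = 0.583). For the mutant, Ncor1 went from 41.0, 60.3, 46.2 and 49.9 TPM to 58.0, 56.5 and 55.7 TPM, and the change of 0.21 did not pass (adjusted p = 0.277).

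Smarcc1, the BAF core subunit, had the largest SD in TPM of the 10 members at E9.25. It was at 188, 89.6 and 160 TPM in E9.25 WT and at 218, 197, 249 and 231 TPM in E10.5 WT, so that replicate 2 lay far below the other E9.25 WT libraries. The log2 change was 0.68 ± 0.22 (95% interval 0.17 to 1.18, limma adjusted p = 0.0347). Without replicate 2 it was 0.36 (adjusted p = 0.0327), without E10.5 WT replicate 1, 3 or 4 it was not called (adjusted p 0.0664 to 0.0788), and with size factors 0.34 (adjusted p = 0.14). Without the span trend it was 0.12 (adjusted p = 0.485), and without both the span trend and replicate 2 it was -0.02. Without Gli3, Smarcc1 went from 157, 260.1, 256 and 195 TPM to 222, 243 and 244 TPM, with overlap, and the change of 0.15 did not pass (adjusted p = 0.558).

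Of the SKI family Skil was called higher in both genotypes and Ski in neither, which is not a test of the difference between them. Skil was at 18.3, 8.60 and 15.6 TPM in E9.25 WT and at 26.9, 26.9, 26.3 and 36.4 TPM in E10.5 WT, 2.06 times the E9.25 mean. Its log2 change was 1.04 ± 0.24 (95% interval 0.50 to 1.57, limma adjusted p = 0.0083), 0.70 above the median gene and higher than 88.8% of all genes tested. It was called under each of the 10 alternatives, at 0.72 (adjusted p = 0.0131) with size factors and 0.68 (adjusted p = 0.0136) without the span trend, and was 0.74 (adjusted p = 0.0048) on leaving out the library labelled E9.25 WT replicate 2. In the mutant buds, Skil went from 16.5, 22.4, 17.5 and 18.8 TPM to 26.9, 28.3 and 26.4 TPM without overlap. That change of 0.52 ± 0.13 was also called (adjusted p = 0.0143), but not when any 1 of the E10.5 Gli3-/- libraries was left out (adjusted p 0.0506 to 0.0693). Ski, in contrast, was at 40.4, 22.6 and 30.3 TPM in E9.25 WT and at 38.9, 32.4, 40.1 and 40.4 TPM in E10.5 WT. The groups overlapped and the change of 0.31 ± 0.18 (95% interval -0.10 to 0.73, adjusted p = 0.179) did not pass. Relative to the median gene it was -0.03, and it was called in 1 of the 7 fits with a library left out, that without E9.25 WT replicate 1 (0.51, adjusted p = 0.0246), while without replicate 2 it was 0.11 (adjusted p = 0.556). In Gli3-/- buds Ski went from 34.7, 60.8, 49.4 and 41.7 TPM to 40.7, 48.8 and 36.8 TPM, -0.12 (adjusted p = 0.667).

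Atn1, the atrophin gene, had the largest stage difference of the 10 in WT. It was at 28.1, 12.3 and 22.3 TPM in E9.25 WT and at 51.5, 40.3, 54.6 and 49.7 TPM in E10.5 WT, 2.34 times the E9.25 mean. Every E10.5 WT library was above every E9.25 WT library. The log2 change was 1.25 ± 0.24 (95% interval 0.70 to 1.81, limma adjusted p = 0.0042), 0.92 above the median gene and higher than 93.5% of all genes tested. It was called under each of the 10 alternatives, at 0.93 (adjusted p = 0.0047) with size factors, 0.96 (adjusted p = 0.0053) without the span trend and 0.93 (adjusted p = 0.0013) on leaving out the library labelled E9.25 WT replicate 2. In the absence of Gli3, Atn1 went from 24.8, 46.3, 38.7 and 32.1 TPM to 44.5, 55.4 and 40.2 TPM. These overlapped, and the change of 0.41 ± 0.20 (95% interval -0.03 to 0.85) did not pass (adjusted p = 0.159). It was called with sample quality weights (0.43, adjusted p = 0.0265) and without E9.25 Gli3-/- replicate 2 (0.55, adjusted p = 0.0441).

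**Figure D2:**
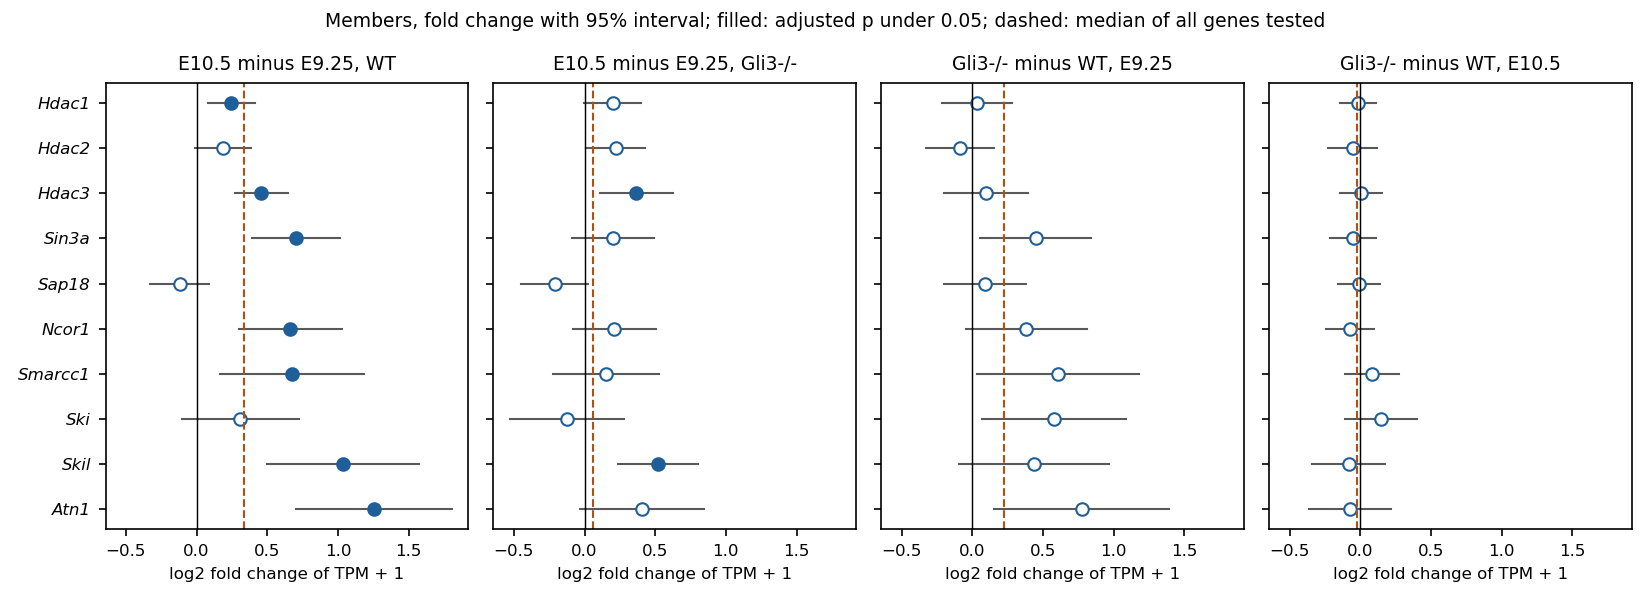
Log2 fold change of log2(TPM + 1) for each member in the 4 comparisons, with 95% intervals from limma; filled points passed the adjusted p of 0.05 and the dashed line is the median of all genes tested (0.34 for the WT stage comparison). In WT, 7 points are filled, from 0.25 for Hdac1 to 1.25 for Atn1; in Gli3-/- buds 2 are, and no point is filled in either genotype comparison.

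How the libraries are scaled decides how many of these stage differences stand in WT. As deposited, 5885 genes were called higher and 1635 lower. With size factors the split was 3246 to 3233, with quantile normalization 2846 to 2967, and with the span trend removed 2809 to 3291, and the median gene then lay at 0.05 or less. Of the members, 3 were then called higher and 1 lower with size factors, as without the span trend, and 8 higher and none lower with quantile normalization. Atn1, Skil and Sin3a were called higher under all 3 scalings. The background under them was 42.0%, 39.5% and 37.6% of all genes called, respectively for size factors, span and quantile. Among Gli3-/- libraries the split of all calls was 2437 to 1416 as deposited and 2447 to 2197, 2356 to 2142 and 2300 to 2305 with size factors, quantile normalization and the span trend removed.

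**Figure D3:**
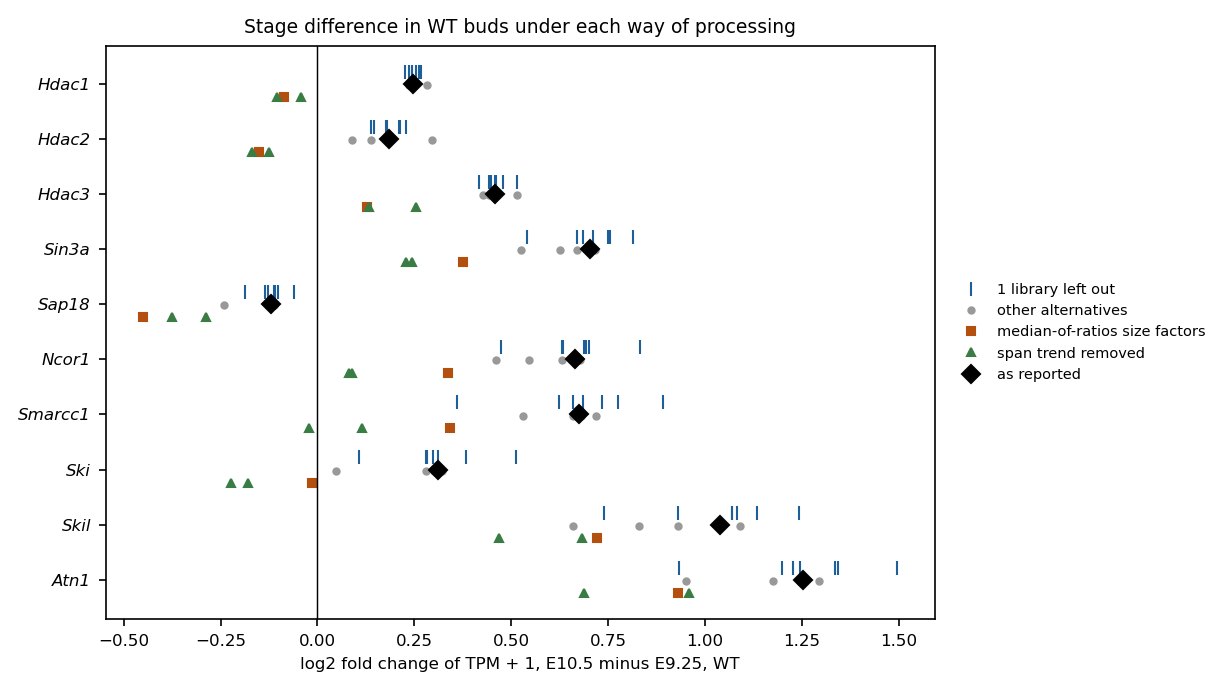
Log2 fold change between E9.25 WT and E10.5 WT for each member (rows) under the fit as deposited and under each alternative setting, with 1 mark per setting: diamonds as reported, bars with 1 library left out, squares for size factors, triangles with the span trend removed and grey points for the rest. For Atn1 the square is at 0.93 and the diamond at 1.25, while the marks of Hdac1, Hdac2 and Ski lie on both sides of 0.

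The second question was whether these genes depend on Gli3. At E9.25 none of the 10 was called between WT and Gli3-/- (limma adjusted p 0.217 or more), in a comparison where 0.136% of 14760 genes were called (16 higher and 4 lower as deposited, 16 and 10 with size factors or quantile normalization) while 3247 had an unadjusted p under 0.05. The mean was higher in Gli3-/- for 9 of the 10, with a median of 0.41 against 0.23 over all genes. Atn1 differed by 0.77 ± 0.28 (95% interval 0.15 to 1.39, adjusted p = 0.217) and Ski by 0.58 ± 0.23 (95% interval 0.07 to 1.09, adjusted p = 0.217). Smarcc1 differed by 0.61 (adjusted p = 0.22) and Sin3a by 0.45 (adjusted p = 0.217). These 4 were the members with an unadjusted p under 0.05. No member was called under any alternative or with any library left out, the lowest adjusted p being 0.0536 for Sin3a. For all 10 members the ranges of the groups overlapped, as they did for all but 13.3% of genes tested. The intervals are wide, and differences as large as those between the stages are inside several of them. On leaving out the library labelled E9.25 WT replicate 2, Atn1 was at 0.45, Ski at 0.38, Smarcc1 at 0.29 and Sin3a at 0.29 (adjusted p 0.438 or more), with 0.14 over all genes. Ncor1 was then at 0.19, Sap18 at 0.15, Skil at 0.14, Hdac1 at 0.011 and Hdac2 at -0.13. The members' median of 0.41 thus depended on that library. Without both that library and the span trend, Skil was at -0.0092 and Ncor1 at -0.0081. For Hdac1, Hdac3 and Sap18 the difference was 0.03, 0.10 and 0.09 as deposited and turned negative under the 3 scalings, while Hdac2 was at -0.09 as deposited.

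At the same stage, 12 of the 41 marker genes had ranges that did not overlap between the genotypes, against 13.3% of all genes tested. Of these, 8 were higher and 4 lower in Gli3-/-. Markers of flank and lateral plate mesoderm summed to 18.1 to 36.5 TPM in E9.25 WT and 61.7 to 137 TPM in E9.25 Gli3-/-, with Foxf1 at 0.22 to 2.80 against 12.1 to 35.5 TPM and Gata4 at 1.80 to 4.42 against 16.3 to 42.9 TPM. Osr1 and Wt1 of this list, Cdh5, Kdr and Cldn5 of endothelium and Krt18 of ectoderm were also higher, and the ectoderm genes Perp and Fgf8 and the muscle progenitor genes Pax3 and Lbx1 were lower. Their part in the member values was not tested.

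At E10.5 no member differed between the genotypes beyond the spread of the libraries. None was called, in a comparison where 4.77% of 15654 genes were, and none had an unadjusted p under 0.05. The largest difference was 0.14 on the log2 scale, for Ski, and the 95% intervals of the 10 reached from -0.36 to 0.40 at most. Hdac1, for example, had a mean of 154 ± 4.37 TPM (SD, n = 4) in WT and 152 ± 1.99 TPM (SD, n = 3) in Gli3-/-. Atn1 had 49.0 ± 6.18 TPM and 46.7 ± 7.80 TPM, and Sin3a 67.4 ± 4.84 TPM and 64.8 ± 2.17 TPM. The ranges overlapped for all 10, while 19.3% of genes tested had ranges that did not. Of the 41 marker genes 11 did not overlap between these groups. Fgf10 (10.2 to 13.1 and 25.5 to 27.3 TPM) and Fgf8 (50.4 to 69.0 and 131 to 171 TPM) were higher in Gli3-/-. Prrx1, Prrx2, Twist1 and Msx1 of limb mesenchyme, Pax3 and Met of muscle progenitors, Ptprc and Cd68 of macrophages and Gata6 were lower. The limb mesenchyme list summed to 864 to 1047 TPM in WT and to 679 to 730 TPM in Gli3-/-, and the surface ectoderm list to 209 to 262 and 295 to 331 TPM. Their part in the member values was not tested. The E9.25 and E10.5 genotype comparisons and the stage comparisons share the same 4 groups of libraries, so that a low E9.25 WT value enters both.

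The third question was whether the stage difference itself depends on Gli3. The stage difference was smaller in Gli3-/- than in WT by 0.84 ± 0.34 log2 units for Atn1 (interaction -0.84, 95% interval -1.57 to -0.12, limma adjusted p = 0.196). For Sin3a the interaction was -0.50 (adjusted p = 0.182), for Skil -0.52 (adjusted p = 0.283) and for Smarcc1 -0.52 (adjusted p = 0.310). None of the 10 passed, in a test that called 2.13% of 16368 genes. Atn1 and Sin3a were the 2 members with an unadjusted p under 0.05, as had 3443 of the 16368 genes. On leaving out the library labelled E9.25 WT replicate 2 the interaction was -0.52 for Atn1 (adjusted p = 0.397), -0.34 for Sin3a (adjusted p = 0.369), -0.22 for Skil (adjusted p = 0.59) and -0.21 for Smarcc1 (adjusted p = 0.654). Over the alternatives and left-out libraries the lowest adjusted p was 0.0531, for Atn1. With all libraries the median interaction was -0.44 over the members and -0.24 over all genes. Without E9.25 WT replicate 2 Ncor1 was at -0.26 and Ski at -0.23, so that the members' median depended on that library. The calls of Atn1, Sin3a, Ncor1, Smarcc1 and Hdac1 in WT but not in Gli3-/- are therefore not shown to differ between the genotypes. As deposited 78 genes were called higher and 270 lower. With size factors the split was 131 to 236, with quantile normalization 160 to 193 and with the span trend removed 163 to 196.

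A scaling factor of a library cancels in the ratio of the TPM of related genes, though a trend over gene span does not. The exact two-sided permutation test over 35 splits can give no p below 0.0286, and over the 24 tests run no ratio passed after adjustment (adjusted p = 0.114 at the least). Smarcc1 exceeded its paralogue Smarcc2, the other BAF core subunit of this kind, 6.23 to 6.85 times in E9.25 WT and 3.21 to 3.50 times in E10.5 WT. The difference was -0.96 on the log2 scale, without overlap (exact p = 0.0286, adjusted p = 0.114). In Gli3-/- it went from 5.25 to 6.39 down to 3.38 to 4.56, again without overlap (exact p = 0.0286, adjusted p = 0.114). Ski exceeded Skil 1.94 to 2.63 times in E9.25 WT and 1.11 to 1.52 times in E10.5 WT, and 2.10 to 2.82 times in E9.25 Gli3-/- and 1.39 to 1.73 times in E10.5 Gli3-/-. Neither Ski to Skil group overlapped the other stage in either genotype (exact p = 0.0286, adjusted p = 0.114 in both), and the stage comparisons of the genotypes share no library.

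For the other ratios the groups separated in 1 of the 4 comparisons or in none. Sin3a to Sin3b was 0.382 to 0.628 in E9.25 WT and 0.706 to 0.736 in E10.5 WT without overlap (exact p = 0.0286, adjusted p = 0.114), but 0.573 to 0.824 and 0.731 to 0.794 in Gli3-/- (exact p = 0.771). Hdac1 to Hdac3 was 1.49 to 1.78 in E9.25 WT and 1.41 to 1.44 in E10.5 WT. Hdac1 to Hdac2 stayed within 0.401 to 0.507 in all 14 libraries, with overlap in every comparison. Atn1 to Rere was 0.683, 1.18 and 0.684 in E9.25 WT and 0.942 to 1.04 in E10.5 WT. The overlap came from replicate 2, and on leaving it out the log2 difference went from 0.27 to 0.53.

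**Figure D4:**
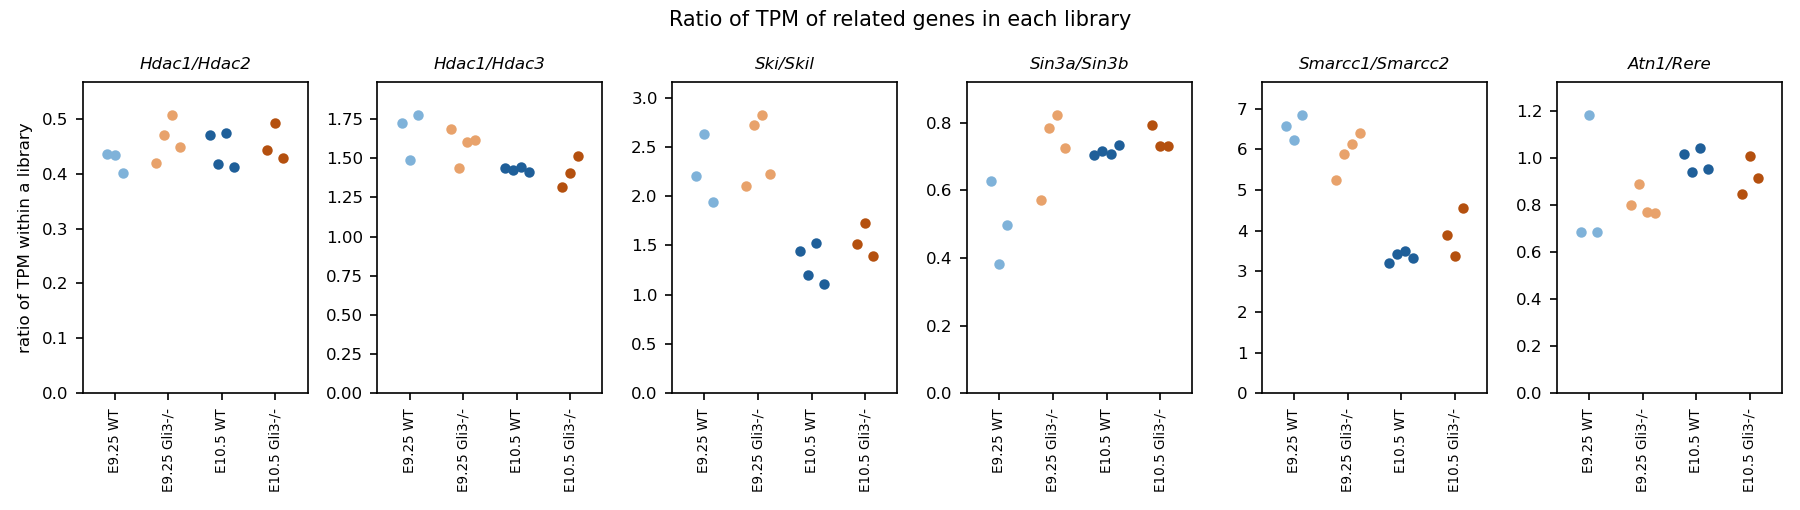
Ratio of the TPM of related genes in each of the 14 libraries, 1 panel per pair, each axis linear from 0, with 1 point per library coloured by group. Smarcc1 to Smarcc2 lies at 6.23 to 6.85 in E9.25 WT and at 3.21 to 3.50 in E10.5 WT, and Hdac1 to Hdac2 within 0.401 to 0.507.

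Other genes of the same complexes give the setting for the members. Their counts are to be read against all genes, of which 38.1% were called higher and 10.6% lower in WT and 15.8% and 9.17% in Gli3-/-. Of the class I HDAC genes Hdac8, the only one that is no member, was at a mean of 8.23 TPM in E9.25 WT and 20.7 TPM in E10.5 WT (log2 change 1.23 ± 0.12, limma adjusted p = 0.0002) and was also higher in Gli3-/- (0.89, adjusted p = 0.0012). All 5 genes reported from the NCoR complex, a list that is not complete, were called higher in WT. Apart from Ncor1 and Hdac3 these were Tbl1xr1 (1.06, adjusted p = 0.0204) and Tbl1x (0.62, adjusted p = 0.0184), both exchange factors for the complex, and Gps2 (0.64, adjusted p = 0.0048), a further subunit. Tbl1xr1 was at 6.69, 15.5 and 21.0 TPM in E9.25 WT and at 27.2 to 29.9 TPM in E10.5 WT. The size of its change thus depends on the lowest E9.25 WT library. With size factors and without the span trend 1 of the 5 was called higher, and with quantile normalization 5. Across the same stages in Gli3-/-, 1 of the 5 was called, Hdac3. Rere, the other atrophin, was at 28.1 and 49.5 TPM in WT (0.99, adjusted p = 0.0568).

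In the SIN3 complex 5 of 17 genes tested were higher in WT and 1 lower, against 38.1% and 10.6% of all genes. Their median was 0.18, below the 0.34 of all genes. These counts turned to 4 and 5 with size factors and 3 and 5 without the span trend, and were 6 and 2 with quantile normalization. The median turned to -0.15 with size factors and without the span trend, and was 0.06 with quantile normalization. Besides Sin3a, Hdac1 and Sap130 (0.89, adjusted p = 0.0035), the genes that rose were Arid4b (1.37, adjusted p = 0.0080) and Arid4a (0.85), the last not called with quantile normalization (adjusted p = 0.101) or without the span trend (adjusted p = 0.0927). Rbbp7, a histone binding subunit, fell from 283 to 239 TPM (-0.24, adjusted p = 0.0323). For the mutant, 2 of the 17 rose and 2 fell, with Arid4b (1.20) higher and Rbbp7 (-0.46, adjusted p = 0.0084) lower again. Arid4b and Sap130 were called in WT under all 3 scalings, Rbbp7 was not called with quantile normalization (adjusted p = 0.23), and Sap18 and Hdac2 are the members of this list that did not pass as deposited.

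Of the BAF and PBAF genes 16 of 24 were higher and 1 lower in WT, against 38.1% and 10.6% of all genes. Their median was 0.49. With size factors and without the span trend 4 were higher and 3 lower, and with quantile normalization 14 higher and 1 lower. The share called was then, in that order, 29.2%, 29.2% and 62.5%, against 42.0%, 39.5% and 37.6% of all genes. The medians were 0.16, 0.11 and 0.36. Smarcc2 rose from a mean of 22.1 to 66.5 TPM (1.59, adjusted p = 0.0007) and was called under all 3 scalings, as was Dpf1 (1.18). Dpf3 fell (-1.18) and Arid1a rose (1.17, adjusted p = 0.0431), though Arid1a was not called with size factors (adjusted p = 0.0798) or without the span trend (adjusted p = 0.105). Arid1a was at 17.3, 58.2 and 75.7 TPM in E9.25 WT and at 86.0 to 106 TPM in E10.5 WT. The size of its change thus depends on the lowest E9.25 WT library. Without Gli3, 6 of the 24 rose, Smarcc2 among them (0.73, adjusted p = 0.0103), and 3 fell, against 15.8% and 9.17% of all genes. Of the NuRD genes 7 of 14 were higher and 1 lower in WT (median 0.24, and -0.09 with size factors and -0.16 without the span trend). These counts were 2 and 1 with size factors, 2 and 2 without the span trend and 7 and none with quantile normalization. Chd3, a remodelling ATPase, went from 6.64 to 82.7 TPM in WT (3.51 ± 0.27, adjusted p = 0.0001) and from 11.9 to 57.1 TPM in Gli3-/- (2.16).

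The CoREST complex had 8 of 11 genes higher and none lower (5, 9 and 5 higher with size factors, quantile normalization and without the span trend), led by Zmym3 (1.19), Phf21a (1.03) and Rcor3 (0.97). MiDAC had 2 of 5 higher (1 with size factors or without the span trend, and 3 with quantile normalization), against 38.1% of all genes as deposited. Of the SKI and SMAD list 5 of 7 were higher, with Dach1 at 1.23, Dach2 at 1.08 and Skil at 1.04 (4 higher with size factors or quantile normalization, and 3 higher and 1 lower without the span trend). Dach2 was not called with quantile normalization (0.60, adjusted p = 0.104) or without the span trend (0.38, adjusted p = 0.287). The atrophin list had 1 of 2 higher, Atn1. In the mutant buds, 3 of 11 CoREST genes, none of 5 MiDAC genes, 1 of 14 NuRD genes and 1 of 7 SKI and SMAD genes were called higher. Called lower were 1 NuRD gene, Rbbp7 (-0.46), and 1 SKI and SMAD gene, Dach1 (-0.91, limma adjusted p = 0.0055). The share of all genes was 15.8% higher and 9.17% lower. With quantile normalization the higher calls were 5 for CoREST, 2 for MiDAC, 4 for NuRD and 1 for the SKI and SMAD list. Counted together with the other deacetylase, acetyltransferase and BET lists given at the close, but without the list of Gli3 and its regulators, 95 genes that are no members were tested. Of these 57 were higher and 4 lower in WT, 64.2% called against 48.7% of all genes. That excess depended on the scaling: with size factors 31 were higher and 9 lower (42.1% against 42.0%), without the span trend 27 and 11 (40.0% against 39.5%) and with quantile normalization 45 and 5 (52.6% against 37.6%). Across the stages in Gli3-/-, 20 were higher and 7 lower (28.4% against 25%).

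Between genotypes, 0 of 94 genes of these lists were called at E9.25, against 0.136% of all genes, and 3 of 94 (3.19%) at E10.5, against 4.77%, all lower in Gli3-/-. Gli3, whose list is not in this count, was lower at E10.5 too (-1.01, limma adjusted p = 0.0003). The 3 genes of the count were Dach1 (-1.29, adjusted p = 0.0008), Dach2 (-1.0, adjusted p = 0.0163) and Smarcd3 (-0.78, adjusted p = 0.0096), while their complex partners Ski, Skil and Smarcc1 did not pass. Between the same groups 11 of the 41 marker genes did not overlap, as given above, and their part in these calls was not tested. Dach1 (-2.14, adjusted p = 0.0074) and Smarcd3 (-1.84, adjusted p = 0.0078) were also the genes of these lists with a called interaction.

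**Figure D5:**
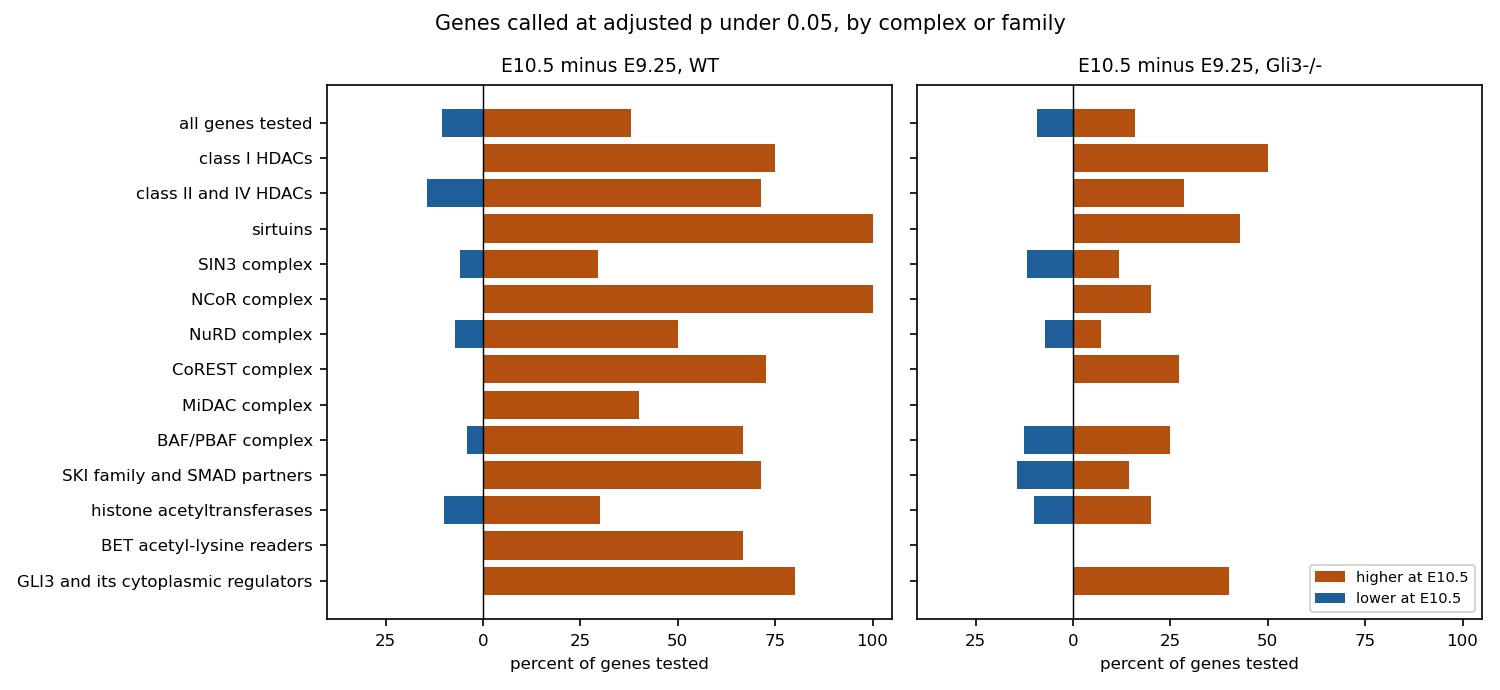
Percent of the tested genes of each complex or family list called higher (bars to the right) and lower (bars to the left) at E10.5, in WT and in Gli3-/- panels, with the share of all genes tested on top (38.1% higher and 10.6% lower in WT). In WT the BAF list stands at 16 of 24 higher and the SIN3 list at 5 of 17; in Gli3-/- buds they stand at 6 of 24 and 2 of 17.

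Near-identical copies limit what can be said of Hdac1 and Sap18. Gm10093, the pseudogene that RefSeq names Hdac1-ps, was listed at 42.8 to 56.0 TPM, which is 25.4 to 27.2% of the sum with Hdac1 in every library. Gm10094, which RefSeq names Sap18b, was listed at 97.1 to 125 TPM, or 61.2 to 65.0% of the sum with Sap18. How reads shared by a gene and its copy were divided is not given in the sources used here, so the levels of these genes are uncertain. With the copies summed, the WT stage change was 0.24 (limma adjusted p = 0.024) for Hdac1 and -0.13 (adjusted p = 0.256) for Sap18, close to the values without them. The tables do not say whether strand was used in counting. Ncor1 overlaps Pigl, Ttc19 and Gm12276, of which none exceeded 17.3 TPM, and Smarcc1 overlaps Dhx30, at up to 83.7 TPM. A further ID named Atn1 had at most 0.167 TPM and was not used.

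The genes whose pattern over the 14 libraries was nearest to each member, by the root mean square difference of centred log2(TPM + 1) among 16368 genes, were mostly from outside these complexes. They were Gm10093 for Hdac1 (0.034), Cmpk1 for Hdac2 (0.040), B4galt4 for Hdac3 (0.070) and Drosha for Ski (0.062). For Skil it was Stxbp4 (0.089), for Sin3a Ipo8 (0.063), for Sap18 Gm10094 (0.061) and for Smarcc1 Slc38a1 (0.065). For Atn1 it was Ttyh3 (0.082) and for Ncor1 Gm38082 (0.078). Among the members themselves, Hdac1 and Hdac2 were nearest to each other (0.098), then Sin3a and Ncor1 (0.121) and Hdac1 and Hdac3 (0.123). This distance is not scaled and is small for any genes that vary little. The root mean square of a gene's own centred values was 0.120 for Hdac1 and 0.134 for Hdac2. For Sin3a and Ncor1 it was 0.308 and 0.307.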

How the data were processed

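RNA of pooled mouse forelimb buds was extracted in TRIzol, and libraries were made with the NEBNext Ultra II RNA kit and sequenced as single reads of 100 bases. Per the study's methods the authors aligned reads with HISAT2 and used DESeq2 for their own tests. The program and build behind the gene tables are not given in the sources used here. The submitters' processing notes name Bowtie2 2.2.5, MACS2, SEACR and mm10 for the whole series, with no role. The deposited gene tables give TPM, FPKM and coverage per gene, normalized by the authors, with no raw counts. From the deposited FPKM and the deposited coverage the reads of each library were estimated, as the slope of the coverage on FPKM. That is the depth given, and it enters no test.

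Here, TPM of a gene ID on several lines was summed. Genes at TPM 1 or more in at least 3 of the libraries compared were tested with limma 3.58.1 (R 4.3.3; lmFit, eBayes with trend) on log2(TPM + 1), a pseudocount of 1 that understates changes of low genes. Each comparison was fitted on its own 2 groups, the interaction on all 14 libraries, two-sided, with p-values adjusted by Benjamini-Hochberg over all genes tested and a threshold of 0.05. Intervals are 95% intervals of the fit. The replicates are described as biological, from pooled embryos. Ratios were compared with exact permutation tests (SciPy 1.17.1), and other steps used Python 3.11.15, pandas 2.3.3, NumPy 2.4.6 and matplotlib 3.10.9. The fit was tested on simulated data. Size factors were medians of ratios to the geometric mean of TPM. The span trend was a loess curve of each library's difference from the mean over log gene span. Alternatives were a pseudocount of 0.1, no filter, TPM 5 as the filter, no trend, size factors, quantile normalization, sample weights, a block for replicate number, all 14 libraries in 1 model, the span trend removed and leave-one-out.

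The members and lists were chosen with earlier results of these data known. Named were the 10 members, all genes of the class I HDAC, NCoR and atrophin lists, near copies, up to 3 genes per direction and list with the largest called change, and for each member the gene with the nearest pattern. Of these, the genes printed from the larger lists are examples. Items of these lists, with what was computed from them, are not reported here. Chromatin assays of the series were not analysed here.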

Additional observations from a re-analysis of the deposited data

Results flagged for a closer look

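In groups of 4 libraries, 2 of 20 tests, 1 per member and group, flagged a value far from the others by Dixon's ratio of gap to range. Chance flags about 1 in 20. Hdac2 was low in E9.25 Gli3-/- replicate 3, at 270.3 TPM against 292 to 296 TPM in the other libraries of its group (ratio 0.875). Skil was high in E10.5 WT replicate 4, at 36.4 TPM against 26.3 to 26.9 TPM (ratio 0.926). Without that library the WT stage difference of Skil was still called. Groups of 3 libraries were not tested in this way.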

How the results depend on the processing

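For the 10 members in 5 comparisons, 827 of the values under alternatives kept their direction and their side of the threshold, 29 lost a call, 12 gained one and 42 changed sign, nearly all of them small. A value that changed sign is counted as that alone. Hdac1 in WT, with size factors and without the span trend, both changed sign and lost its call. All 192 differences of ratios under alternatives moved by less than 1 SD of the libraries, but in 16 of the 168 cases with 1 library left out the overlap of 2 groups ended, Atn1 to Rere between the stages in WT among them. The lowest value of a member was 8.60 TPM, and each group held 3 or 4 libraries. Whether depth or group size limits the calls was not tested. The cause of the changes below was not tested.

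Between the stages in WT, size factors turned Hdac1 to -0.086, Hdac2 to -0.15 and Ski to -0.015. Removing the span trend turned them to -0.10, -0.17 and -0.18, and removing it without E9.25 WT replicate 2, an alternative chosen after seeing the data, to -0.042, -0.12 and -0.22, with Smarcc1 at -0.021. Smarcc1 was not called without a filter (adjusted p = 0.0852) or without E10.5 WT replicate 1, 3 or 4 (adjusted p = 0.0664, 0.0788 and 0.0784 from limma). Hdac1 was not called without trend (adjusted p = 0.0628), or without E9.25 WT replicate 2 or E10.5 WT replicate 1, 3 or 4. In Gli3-/-, Ski ranged from -0.25 to 0.011 with 1 library left out (positive without E9.25 Gli3-/- replicate 2) and Smarcc1 at -0.0056 without the span trend, and Skil was not called in a single model (adjusted p = 0.0694).

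Between genotypes at E9.25, quantile normalization gave -0.024 for Hdac1, -0.011 for Hdac3 and -0.057 for Sap18, size factors -0.20, -0.13 and -0.14, and the span trend removed -0.19, -0.11 and -0.072. Without the span trend and E9.25 WT replicate 2, Hdac1 was at -0.13, Skil at -0.0092 and Ncor1 at -0.0081. At E10.5, size factors gave 0.011 for Hdac1 and 0.021 for Sap18, the span trend removed 0.0071 and 0.024, quality weights 0.016 for Hdac2 and 0.0071 for Sap18, and quantile normalization -0.031 for Hdac3. With 1 library left out, Hdac3 ranged from -0.040 to 0.057 (negative without WT replicate 2, Gli3-/- replicate 1 or Gli3-/- replicate 2), Skil from -0.13 to 0.024 (positive without WT replicate 4), Sap18 from -0.040 to 0.037 (positive without WT replicate 1, WT replicate 2 or Gli3-/- replicate 2) and Atn1 from -0.20 to 0.026 (positive without Gli3-/- replicate 3). For the interaction, size factors gave 0.22 for Hdac1, 0.17 for Hdac3 and 0.17 for Sap18, the span trend removed 0.20, 0.14 and 0.10, and quantile normalization 0.027 for Sap18. Hdac2 ranged from -0.0096 to 0.083 with 1 library left out (negative without E9.25 WT replicate 3 or E10.5 Gli3-/- replicate 3).

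Of all genes, 7520 were called between the stages in WT (5139 to 8305 with 1 library left out), 3853 in Gli3-/- (2129 to 4326), 20 between genotypes at E9.25 (2 to 196), 747 at E10.5 (301 to 680) and 348 for the interaction (150 to 1433). The count in Gli3-/- was 2129 to 2292 without any 1 of the E10.5 Gli3-/- libraries. At E9.25 it was 196 without WT replicate 1, 2 without WT replicate 3, 67 without Gli3-/- replicate 4 and 4 without Gli3-/- replicate 1 or 3. At E10.5 it was 301 to 489 without WT replicate 1 or 4 or any 1 of the Gli3-/- libraries. The interaction count was 1433 without E9.25 WT replicate 1 and 150 to 230 without any other library but E9.25 Gli3-/- replicates 1, 2 and 4 and E10.5 WT replicate 2. Quality weights gave 6520 in Gli3-/-, 53 at E9.25, 1356 at E10.5 and 830 for the interaction. No filter gave 0 at E9.25, with 3542 at an unadjusted p under 0.05 in limma, and 391 at E10.5. A single model gave 1185 and 406, and the span trend removed gave 36 at E9.25. The summed near copies and the lists under 3 scalings were also chosen after seeing the data.

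The replicate numbers of the titles did not pair the libraries, as deviations of same-numbered libraries correlated at -0.03 (stage, WT), 0.04 (stage, Gli3-/-), -0.17 (genotype, E9.25) and -0.05 (genotype, E10.5). The tables of the E10.5 Gli3-/- libraries are named with the numbers 2 to 4 where the titles have 1 to 3. By the table names the pairs correlated at 0.050, 0.29 and 0.17 at E10.5 and at -0.084, 0.15 and -0.0060 between the stages in Gli3-/-, not all over 0.1, and the block was not fitted by them. The fit with the replicate block also leaves out the libraries numbered 4, which have no partner, so that both choices change together. It called 4627 genes between the stages in WT (5139 without E10.5 WT replicate 4 and no block), 68 and 167 between the genotypes at E9.25 and E10.5 (67 and 450 without replicate 4 alone) and 141 for the interaction. Hdac1 (0.24, adjusted p = 0.134) and Ncor1 (0.63, adjusted p = 0.0514) in WT and Hdac3 in Gli3-/- (adjusted p = 0.127) were not called in it. Without replicate 4 alone Ncor1 was called (adjusted p = 0.0344) and Hdac1 (adjusted p = 0.0647) and Hdac3 (adjusted p = 0.104) were not. Skil was at 0.024 between genotypes at E10.5 in both.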

Other observations

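Deacetylases of other classes also differed between the stages in WT, where 38.1% of all genes were called higher and 10.6% lower. Of the class II and IV HDAC genes 5 of 7 were higher at E10.5 and 1 lower (4, 3 and 3 higher and 1 lower each with size factors, quantile normalization and the span trend removed). Hdac11, the class IV gene, was higher by 1.29 (limma adjusted p = 0.0002), Hdac5 by 1.26 and the tubulin deacetylase gene Hdac6 by 1.10, while Hdac9 was lower (-0.60, adjusted p = 0.0476, and -0.82, -1.10 and -1.18 under the 3 scalings). Hdac11 (adjusted p = 0.0005) and Hdac6 (adjusted p = 0.0305) were also higher in Gli3-/-. All 7 sirtuin genes, for NAD-dependent deacetylases, were called higher in WT, against 38.1% of all genes, and 3 in Gli3-/-. With size factors 4 of the 7 were called, with quantile normalization 3 and without the span trend 4. Sirt5 (1.48), Sirt4 (1.27) and Sirt2 (0.77), in that order, had the largest changes.

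Among genes for the enzymes that add acetyl groups, 3 of 10 were higher in WT and 1 lower, against 38.1% and 10.6% of all genes. Kat6b was higher by 1.45 and Crebbp by 1.20 (adjusted p = 0.0355), with Kat2b at 0.92. The size of the Crebbp change depends on the lowest E9.25 WT library, as Crebbp was at 4.56, 15.1 and 21.6 TPM there and at 26.6 to 29.6 TPM in E10.5 WT. Crebbp was not called under any of the 3 scalings (adjusted p = 0.0621 to 0.0955) and Kat2b not without the span trend (adjusted p = 0.0689), so that 2, 2 and 1 of the 10 were higher with size factors, quantile normalization and the span trend removed. Hat1, which acetylates newly made histones, fell in WT (-0.70, adjusted p = 0.0011) and fell in Gli3-/- too (-0.47, adjusted p = 0.0329). Of the BET readers of acetylated histones 2 of 3 were higher in WT, Brd3 (0.89) and Brd2 (0.43), and of the list of Gli3 and its cytoplasmic regulators 4 of 5. Brd2 was not called with size factors (adjusted p = 0.44) or without the span trend (adjusted p = 0.209), and the Gli3 list had 2 of 5 higher under each of the 3 scalings. In Gli3-/- buds 2 of the 10 acetyltransferase genes were higher and 1 lower, none of the 3 BET genes was called, and 2 of the 5 in the Gli3 list were higher. The share of all genes there was 15.8% higher and 9.17% lower.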
